A study of Mus musculus with 9 samples.

Results

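Chemokine, NF-kB feedback and LIF transcripts were compared between the replicate wells of a single mutator line of mouse embryonic fibroblasts. The 5 mutator wells are 5 of the 9 libraries, and the other 4 come from a WT line. Wells 4 and 5 were set against wells 1 to 3, a split that earlier results of these same wells had prompted, so every difference between the 2 sets is a description and carries no test. The trend with replicate number was not tested either, because the labels attach no plating order, position or time to the numbers.

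Both lines were untreated. Cells were seeded at 300000 per well and kept for 48 h, and poly(A) RNA was sequenced in strand-specific paired reads of 150 bp. The labels give the mutator genotype by that word alone and name no allele; in mouse work the word is commonly used for animals whose mitochondrial DNA polymerase lacks proofreading, which the labels do not state here. Each line stands for 1 cell stock and its wells are technical replicates, so p-values measure the spread between wells and not between animals. The deposited totals ran from 32045662 to 49511365 counts in mutator wells and from 26341230 to 36238653 in WT wells. Well 4 was the deepest mutator library and well 5 the shallowest.

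NF-kB is a family of transcription factors held in the cytoplasm by inhibitor proteins of the IkB family. Signals such as TNF, IL-1 or bacterial products release it, and it then switches on chemokines, adhesion molecules and cytokines. It also switches on its own inhibitors, including Nfkbia and Tnfaip3, so that the response is limited in time. Fibroblasts are a known source of Ccl2 and the neutrophil chemokines, and they secrete LIF, an IL-6 family cytokine.

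The promoters of 6 genes that were higher in wells 4 and 5 are shown first. They were picked because each holds a match to the kappa-B motif, the DNA sequence NF-kB binds, and they are no sample of the higher genes: Lif, Saa3, Zc3h12a, C3 and Mt2 have promoter entries without a match. Each line gives the 140 bases before the annotated start (RefSeq, GRCm38.p6), 5′ to 3′ on the gene's own strand. Capitals mark matches to the kappa-B consensus on either strand, with overlapping matches merged.
Cxcl1: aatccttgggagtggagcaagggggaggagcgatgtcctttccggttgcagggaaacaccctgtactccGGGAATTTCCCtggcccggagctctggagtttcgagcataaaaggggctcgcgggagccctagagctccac
Cxcl2: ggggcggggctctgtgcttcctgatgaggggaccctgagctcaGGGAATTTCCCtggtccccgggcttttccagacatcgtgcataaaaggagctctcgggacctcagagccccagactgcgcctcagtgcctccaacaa
Cxcl3: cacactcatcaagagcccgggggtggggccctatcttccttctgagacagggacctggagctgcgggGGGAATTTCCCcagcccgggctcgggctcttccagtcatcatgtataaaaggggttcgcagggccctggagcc
Ccl20: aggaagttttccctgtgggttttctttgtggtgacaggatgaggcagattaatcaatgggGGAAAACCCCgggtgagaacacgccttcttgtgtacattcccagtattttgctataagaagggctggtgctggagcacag
Nfkbia: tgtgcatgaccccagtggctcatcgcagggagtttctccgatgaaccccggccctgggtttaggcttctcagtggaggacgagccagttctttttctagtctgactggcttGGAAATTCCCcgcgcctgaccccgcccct
Tnfaip3: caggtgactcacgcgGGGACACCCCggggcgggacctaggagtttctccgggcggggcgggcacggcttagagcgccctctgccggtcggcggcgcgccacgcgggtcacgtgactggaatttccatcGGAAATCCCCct
The stretches lie at chr5:90891105-90891244 (Cxcl1, plus strand), chr5:90903759-90903898 (Cxcl2, plus strand), chr5:90785961-90786100 (Cxcl3, plus strand), chr1:83116626-83116765 (Ccl20, plus strand), chr12:55492648-55492787 (Nfkbia, minus strand) and chr10:19015411-19015550 (Tnfaip3, minus strand). The 11 capital bases read GGGAATTTCCC in Cxcl1, Cxcl2 and Cxcl3. They begin 71 bases before the start in Cxcl1, 97 in Cxcl2 and 73 in Cxcl3.

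Chemokines of neutrophils and monocytes stood out among the mutator wells, and Cxcl5 and Ccl2 were the most abundant of all transcripts at least 1.5-fold apart. Levels are given as CPM, a gene's counts brought to a fixed library size, here with TMM, a method that corrects for library size and composition. Cxcl1, which attracts neutrophils, stood at 30.1 and 31.2 CPM in mutator wells 4 and 5, against 5.95, 7.49 and 15.7 CPM in mutator wells 1, 2 and 3. Both higher wells lay above all 3 others, and well 3 lay nearest to them. The mean log2 difference was 1.78, and the WT wells held 20.7, 18.1, 17.4 and 16.3 CPM. Cxcl1 thus stood above every WT well in mutator wells 4 and 5 and below every WT well in wells 1 to 3.

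Ccl2, the main monocyte attractant, had 146 and 156 CPM in mutator wells 4 and 5, against 36.8, 48.6 and 77.8 CPM in wells 1, 2 and 3. The sets did not overlap, the log2 difference was 1.54, and the 4 WT wells lay between 40.9 and 46.2 CPM, inside the range of wells 1 to 3. Ccl7, another monocyte attractant encoded beside Ccl2, had 36.6 and 38.4 CPM in wells 4 and 5, against 12.4, 14.8 and 22.7 CPM in wells 1, 2 and 3. Its log2 difference was 1.22. Ccl2 (chr11:82035577-82037452) and Ccl7 (chr11:82045712-82047525) are neighbours, and their wells stood in the same order, with well 1 lowest and well 5 highest.

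Cxcl5, a neutrophil chemokine, had 168 and 160 CPM in mutator wells 4 and 5, against 50.2, 64.5 and 99.4 CPM in wells 1, 2 and 3. Its log2 difference was 1.26. The WT wells held only 1.94 to 2.36 CPM, so every mutator well lay far above WT whatever the spread among mutator wells. Cxcl3, a near relative, had 79.2 and 67.8 CPM in wells 4 and 5, against 38.1, 44.0 and 55.5 CPM in wells 1, 2 and 3, while the WT libraries held 0 to 3 counts of it. Its log2 difference was 0.69.

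Several chemokines with the same order of wells were scarce. Cxcl2, also a neutrophil attractant, had 6.32 and 8.12 CPM in mutator wells 4 and 5, against 0.692, 1.13 and 3.10 CPM in wells 1, 2 and 3. Ccl20, which attracts cells bearing CCR6, had 3.09 and 5.84 CPM in wells 4 and 5, against 0.369, 0.703 and 1.32 CPM in wells 1, 2 and 3. Their log2 differences were 2.36 and 2.50. Well 1 was lowest for both genes. The largest difference of any gene tested was that of Nos2, the inducible nitric oxide synthase, named here after its values were seen. It had 4.36 and 5.59 CPM in wells 4 and 5, against 0.138, 1.09 and 2.35 CPM in wells 1, 2 and 3, a log2 difference of 2.63.

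**Figure D1:**
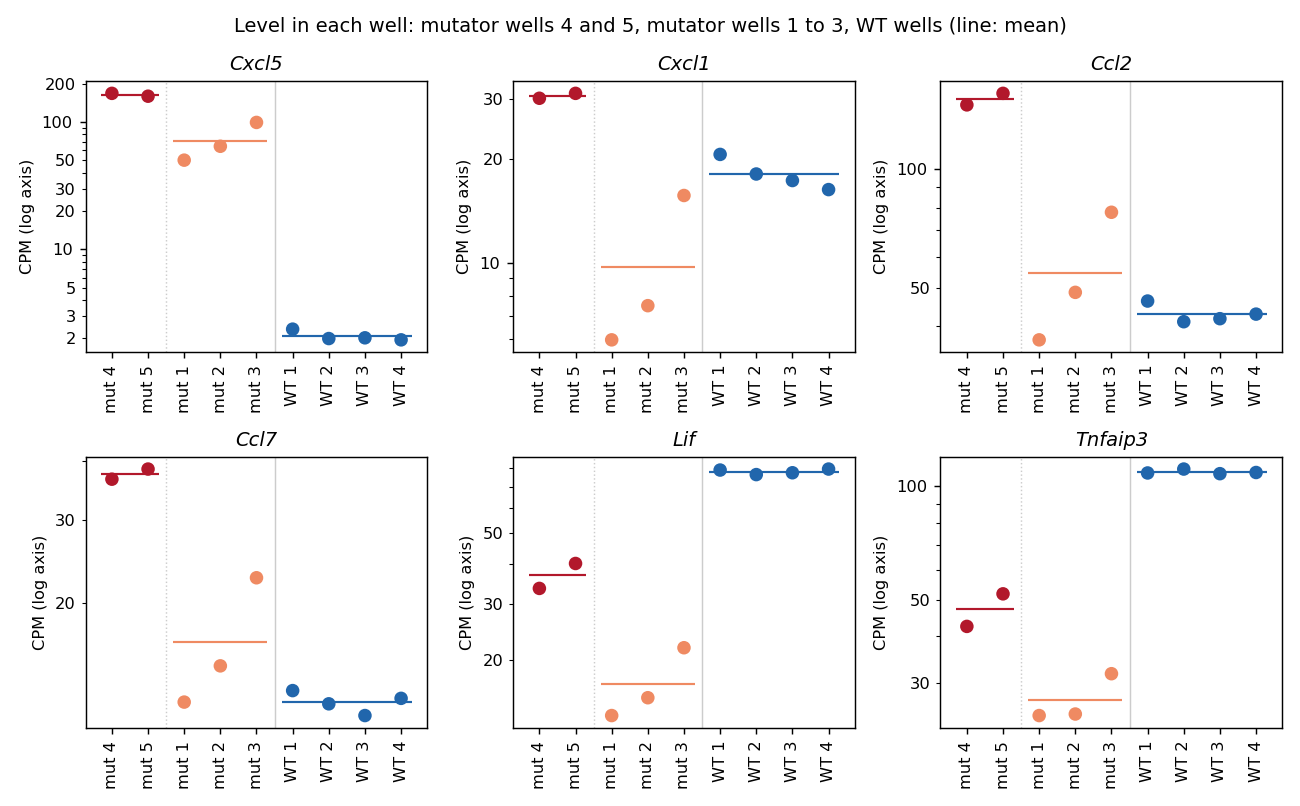
Level of 6 transcripts in each well, as TMM-scaled CPM on log axes; each point is 1 library, horizontal lines are means, and red, orange and blue mark mutator wells 4 and 5, mutator wells 1 to 3 and WT wells. Wells 4 and 5 lie above wells 1 to 3 in all 6 panels, and the WT wells of each gene lie close together.

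Not every chemokine followed. The chemokine list has 29 genes, of which 18 passed the filter on low counts and 5 had no count in any library. Of the 18, 11 were higher in both wells 4 and 5 than in all of wells 1 to 3 and 2 were lower in both. Over all 13345 genes passing the filter those shares were 16.2% and 20.5% (36.7% in either direction); the split was chosen from values of this kind, so nothing is read from the comparison. The list's median log2 difference was 0.30, against -0.01 over all genes. Its summed level was 798 to 816 CPM in wells 4 and 5, 485 to 612 CPM in wells 1 to 3 and 216 to 241 CPM in WT wells.

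The CXC cluster on chromosome 5 shows the contrast among neighbours. Cxcl5 (chr5:90759298-90761625), Cxcl3 (chr5:90786101-90788093), Cxcl1 (chr5:90891245-90893121) and Cxcl2 (chr5:90903899-90905938) were all higher in wells 4 and 5. Ppbp (chr5:90768518-90770063), which lies between Cxcl5 and Cxcl3 and encodes a platelet chemokine precursor, had 33.4 and 30.8 CPM in wells 4 and 5, against 33.8, 34.7 and 34.7 CPM in wells 1, 2 and 3. Its log2 difference was -0.10. Cxcl12, a constitutive stromal chemokine, had 189 and 178 CPM in wells 4 and 5, against 211, 204 and 192 CPM in wells 1, 2 and 3. Both Ppbp and Cxcl12 thus lay slightly lower in wells 4 and 5. Cxcl10, an interferon-inducible T cell attractant, differed by 0.26 on the log2 scale and Ccl5 by 0.34.

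Negative regulators of NF-kB were also higher in wells 4 and 5, by smaller amounts than Cxcl1, Ccl2, Cxcl5 and Ccl7. Tnfaip3 encodes A20, a ubiquitin-editing enzyme that shuts the pathway down. It stood at 42.4 and 51.8 CPM in mutator wells 4 and 5, against 24.6, 24.8 and 31.8 CPM in wells 1, 2 and 3. The WT wells lay between 108 and 111 CPM, above every mutator well. Nfkbia, the gene of the inhibitor IkB-alpha, had 61.9 and 61.3 CPM in wells 4 and 5, against 32.8, 34.2 and 43.5 CPM in wells 1, 2 and 3. The log2 differences were 0.80 for Tnfaip3 and 0.75 for Nfkbia.

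Nfkbiz, which encodes a nuclear IkB protein needed for a subset of NF-kB targets, had 61.1 and 67.3 CPM in wells 4 and 5, against 38.3, 39.1 and 47.0 CPM in wells 1, 2 and 3. Zc3h12a, an RNase that degrades inflammatory mRNAs, had 13.2 and 13.9 CPM in wells 4 and 5, against 6.34, 7.49 and 8.53 CPM in wells 1, 2 and 3. Their log2 differences were 0.63 and 0.86. In both genes well 3 was the highest of the lower 3.

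The NF-kB subunits were not alike. Relb, a subunit of the non-canonical pathway, had 22.0 and 19.8 CPM in wells 4 and 5, against 14.3, 14.9 and 16.5 CPM in wells 1, 2 and 3, a log2 difference of 0.45. Nfkb2, which encodes its partner, differed by 0.27. Rela, the main activating subunit, had 118 and 113 CPM in wells 4 and 5, against 103, 108 and 109 CPM in wells 1, 2 and 3, a log2 difference of 0.12. Nfkb1 differed by 0.11. The kinase gene Ikbkb differed by -0.09 and the scaffold gene Ikbkg by -0.08, both lower in wells 4 and 5. All 28 genes of the NF-kB list passed the filter, 19 were higher in both wells 4 and 5 and 4 were lower in both, with a median log2 difference of 0.17 (all genes 16.2% higher and 20.5% lower). Of the 19, 6 were at least 1.5-fold higher (all genes 0.57%).

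**Figure D2:**
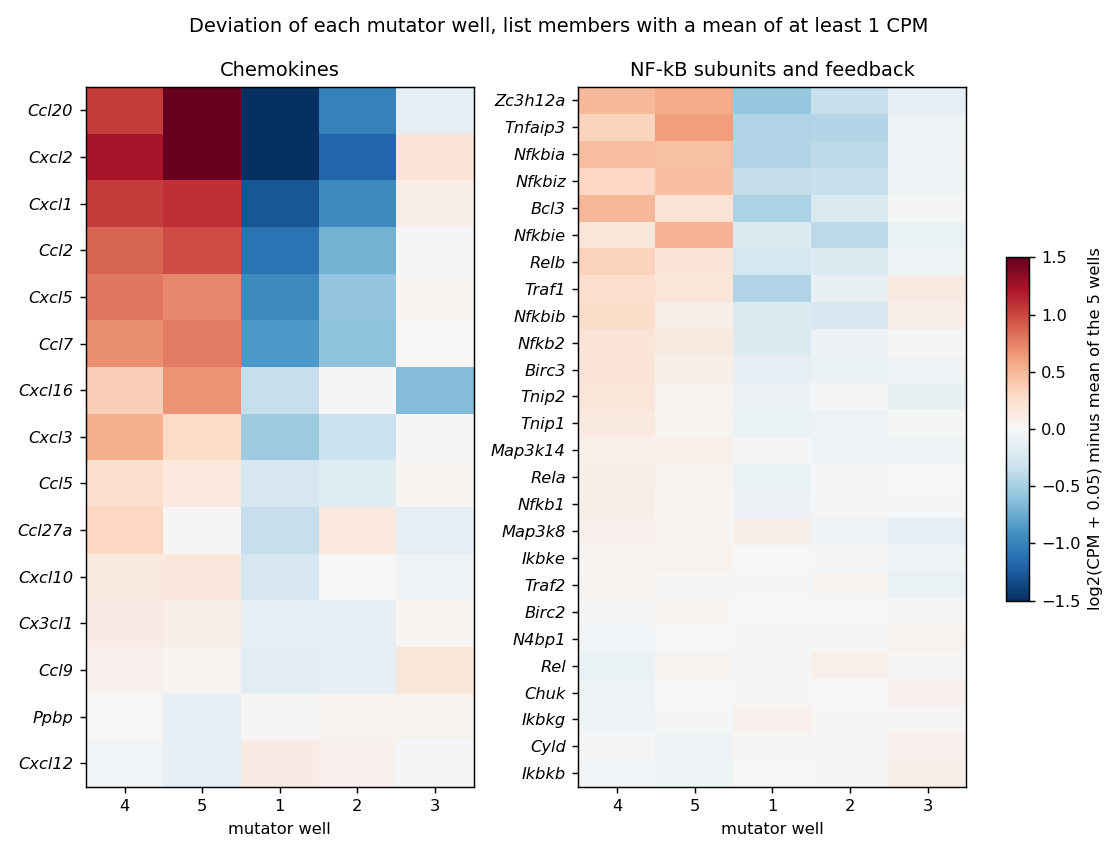
Log2(CPM + 0.05) of each mutator well minus the mean of the 5 wells, for 15 chemokines and 26 NF-kB genes, those averaging 1 CPM or more; rows are genes ordered by the difference of wells 4 and 5 minus wells 1 to 3, and colours end at 1.5 in either direction. The upper rows are red in wells 4 and 5, blue in wells 1 and 2 and pale in well 3, and the lower rows, Cxcl12 and Ikbkb among them, are pale throughout.

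The cytokine gene Lif was higher in wells 4 and 5, and its receptor gene was not. Lif, which keeps mouse embryonic stem cells undifferentiated and is secreted by fibroblasts, had 33.6 and 40.2 CPM in mutator wells 4 and 5, against 13.5, 15.3 and 21.9 CPM in wells 1, 2 and 3. The log2 difference was 1.15, and the WT wells held 76.3 to 79.4 CPM, above every mutator well. Lifr, the LIF receptor, had 64.4 and 66.0 CPM in wells 4 and 5, against 73.8, 73.3 and 67.0 CPM in wells 1, 2 and 3. Il6st, which encodes the shared signalling receptor gp130, differed by -0.04. Socs3, a feedback inhibitor that STAT3 induces, differed by 0.21 and Stat3 itself by 0.04. Of 22 genes in the LIF and IL-6 list, 20 passed the filter, 9 were higher in both wells 4 and 5 and 4 were lower in both (all genes 16.2% and 20.5%).

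Among cytokine, acute-phase and adhesion genes, 26 of 32 passed the filter, 18 were higher in both wells 4 and 5 and 0 were lower in both (all genes 16.2% and 20.5%). Vcam1, an adhesion molecule for leukocytes, had 40.6 and 42.3 CPM in wells 4 and 5, against 23.6, 25.7 and 30.6 CPM in wells 1, 2 and 3. Saa3, an acute-phase protein gene, had 5.34 and 6.18 CPM in wells 4 and 5, against 0.438, 1.68 and 3.40 CPM in wells 1, 2 and 3. C3, the central complement component, had 7.99 and 7.75 CPM in wells 4 and 5, against 3.21, 5.01 and 5.65 CPM in wells 1, 2 and 3. The log2 differences were 0.64 for Vcam1, 2.02 for Saa3 and 0.80 for C3. Il6 differed by 1.39 but averaged under 1 CPM in wells 1 to 3. Ptgs2, the inducible cyclooxygenase, had 385 and 399 CPM in wells 4 and 5, against 376 to 387 CPM in wells 1 to 3, so the sets overlapped.

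Of the 42 AP-1 and immediate early genes, 15 were higher in both wells 4 and 5 and 0 lower (all genes 16.2% and 20.5%), and 0 were at least 1.5-fold higher (all genes 0.57%). The largest difference was that of Junb, an AP-1 subunit, with 85.8 and 61.9 CPM in wells 4 and 5, against 42.2, 46.5 and 64.4 CPM in wells 1, 2 and 3. Its sets overlapped, since well 3 lay above well 5. Of 31 interferon-response genes that passed the filter, 2 were higher and 2 lower in both wells 4 and 5. Proteasome subunits were also looked at. The 14 genes of the proteasome core differed by between -0.07 and 0.11 on the log2 scale, and the 19 of the 19S regulator by between -0.07 and 0.14.

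Across all genes the distance between the 2 sets of wells was small. The log2 difference lay within 0.1 of 0 for 9250 of 13345 genes (69.3%). A set of 76 genes (0.57%) was at least 1.5-fold higher with no overlap and 55 (0.412%) at least 1.5-fold lower. The genes nearest the threshold were Itpka (0.60) and Afap1l1 (-0.59) inside it and Nfkbie (0.58), an IkB gene, and Pcdhga12 (0.58) outside. Of the 76 higher genes, 46 averaged under 1 CPM in mutator wells, and so did 52 of the 55 lower ones. At a mean of 10 CPM or more, 12 genes were higher and 1 lower.

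The 12 abundant higher genes were Cxcl1, Ccl2, Cxcl5, Ccl7, Lif, Tnfaip3, Nfkbia, Cxcl3, Vcam1, Nfkbiz, Slc7a2 and Mt2. The 4 lists described above, on chemokines, NF-kB, cytokines and LIF, hold 10 of these 12. They hold 25 of all 76 higher genes, 0 of the 55 lower ones and 90 of the 13345 genes tested. The lists were chosen with values of these wells known, so nothing is read from these counts. Slc7a2, a cationic amino acid transporter, had 38.6 and 43.8 CPM in wells 4 and 5, against 24.0, 25.5 and 28.3 CPM in wells 1, 2 and 3. Mt2, a metal-binding metallothionein, had 31.9 and 35.4 CPM in wells 4 and 5, against 16.5, 23.9 and 26.2 CPM in wells 1, 2 and 3. In all 12 genes well 1 was the lowest of the 5 and well 3 the highest of wells 1 to 3. Among all 2162 genes with wells 4 and 5 above wells 1 to 3, well 1 was lowest in 1217 (56.3%) and well 3 highest of the other 3 in 1055.

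**Figure D3:**
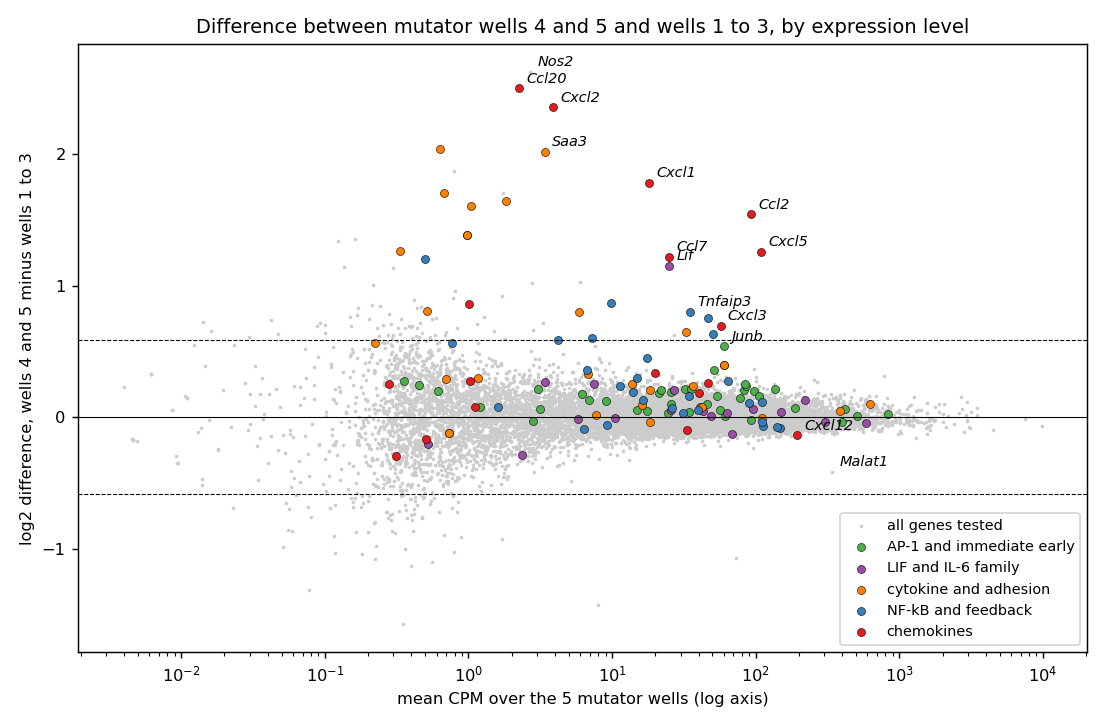
Log2 difference of mutator wells 4 and 5 minus wells 1 to 3 against the mean CPM of the 5 mutator wells (log axis); each point is a gene, colours mark 5 gene lists, and dashed lines mark 1.5-fold. Above 10 CPM the cloud of grey genes narrows, and the points far above it are mainly chemokines, Lif, Tnfaip3 and other NF-kB feedback genes.

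The lower side held few abundant genes. The 1 lower gene above 10 CPM was BC071253, a clone-named transcript named here after its values were seen, with 32.9 and 52.4 CPM in wells 4 and 5, against 65.3, 141 and 71.7 CPM in wells 1, 2 and 3. It also varied in WT, between 70.8 and 161 CPM, with a CV of 56.3% in mutator wells and 37.4% in WT wells. Malat1, a nuclear-retained long RNA, had 238 and 333 CPM in wells 4 and 5, against 372, 409 and 348 CPM in wells 1, 2 and 3. Its log2 difference of -0.42 was -0.17 without well 4 and -0.66 without well 5. Pappa, a metalloproteinase that releases insulin-like growth factors, differed by -0.33 and Serpinb8, a serine protease inhibitor, by -0.29. Bphl, Cdh18, Igsf10, Gca and a transcript listed as Cox2 differed by between -0.22 and -0.26.

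The spread of the same genes between WT wells gives the ordinary spread of this culture. Of 8523 genes averaging at least 10 CPM in both lines, Cxcl1 had the highest coefficient of variation (CV) between mutator wells, 66.7%, against 10.2% between WT wells. Ccl2 ranked 2, Ccl7 4, Lif 5, Tnfaip3 6 and Nfkbia 7 in mutator wells. In WT wells Cxcl1 ranked 80, Ccl2 1251, Ccl7 1590, Lif 7138, Tnfaip3 7984 and Nfkbia 7596. Lif had a CV of 46.8% in mutator wells and 1.82% in WT wells, and Tnfaip3 had 33.7% and 1.26%. Counting error alone gave 3.12% for Lif and 2.63% for Tnfaip3 in mutator wells. In WT wells it gave 2.05% for Lif and 1.73% for Tnfaip3, above the CVs seen there. For Ccl7 in WT wells it gave 5.125%, against a CV of 5.06%. It was not worked out for Nfkbia. The WT CVs and ranks of Lif, Tnfaip3 and Ccl7 are therefore no measure of a real tightness between wells. Among the 15 highest CVs, 8 in mutator wells and 0 in WT wells belonged to the 4 inflammatory lists, which hold 46 of these genes. The genes and lists were chosen with values of these mutator wells known, so nothing is read from the ranks or this count.

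Over the transcriptome as a whole the lines were closer. The CV common to all genes, fitted in each line alone with edgeR, was 3.87% between the 5 mutator wells, 2.64% between wells 1 to 3 and 2.85% between WT wells. A gene's own CV was higher in mutator than in WT wells for 6378 of 13345 genes (47.8%), with medians of 4.40% in mutator wells and 4.41% in WT wells. The root mean square log2 difference between pairs of wells was 0.200 to 0.255 in mutator and 0.244 to 0.267 in WT. Wells 4 and 5 were 0.211 apart, and well 4 was closer to well 3, at 0.205. Among genes at 10 CPM or more in 4 libraries this order was reversed. Wells 4 and 5 were then 0.081 apart, and wells 4 and 3 were 0.097 apart. No pair of wells agreed within sampling noise, since chi-square per degree of freedom was 2.49 or more in every pair, so all libraries were counted as separate wells.

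For a few of these transcripts the call between the lines depended on wells 4 and 5. Mutator and WT wells were compared with edgeR's quasi-likelihood test, Benjamini-Hochberg adjusted over all 13345 genes, with all wells and with mutator wells 4 and 5 left out. The fits share their other libraries, and the wells left out had been chosen by their values, so the second adjusted p is no independent evidence. With all wells 5438 genes were higher in mutator (40.7%) and 5227 lower (39.2%), or 79.9% in either direction.

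Cxcl1 did not pass between mutator and WT with all wells, with a log2 fold change of -0.02 ± 0.35 (SE, edgeR adjusted p = 0.951). Each SE was derived from the test, as the absolute log2 fold change over the square root of its F statistic. Without wells 4 and 5 it was lower in mutator, at -0.92 ± 0.18 (edgeR adjusted p = 7.11e-05). Zc3h12a and Vcam1 likewise did not pass with all wells, at 0.01 ± 0.18 and 0.03 ± 0.13 (edgeR adjusted p = 0.947 and 0.834). They were lower in mutator without wells 4 and 5, at -0.38 ± 0.09 and -0.25 ± 0.06 (edgeR adjusted p = 3.22e-04 and 0.00102). Cxcl1, Zc3h12a and Vcam1 are 3 of 7 genes with wells 4 and 5 above every WT well and wells 1 to 3 below every WT well (0.0525% of those tested).

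Ccl2 and Ccl7 were higher in mutator with all wells, at 1.11 ± 0.32 and 0.99 ± 0.27 (edgeR adjusted p = 0.00419 and 0.0027). Without wells 4 and 5 the values were 0.34 ± 0.14 and 0.42 ± 0.13 (edgeR adjusted p = 0.0303 and 0.00499). Both kept their direction at a smaller distance from WT. Lif, Tnfaip3 and Nfkbia were lower in mutator in both fits, at -1.66, -1.65 and -0.65 with all wells and -2.21, -2.01 and -0.99 without wells 4 and 5. Cxcl5 was higher in both, at 5.69 with all wells and 5.09 without.

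**Figure D4:**
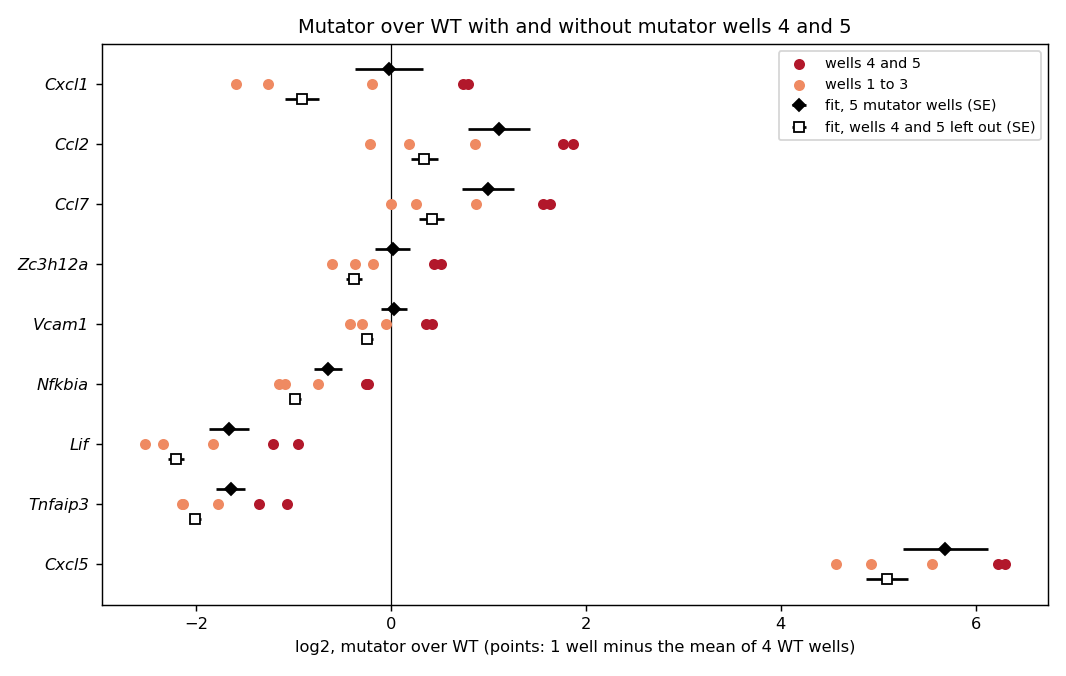
Log2 of mutator over WT for 9 genes. Coloured points are single mutator wells minus the mean of the 4 WT wells. Diamonds are the edgeR fit with 5 mutator wells and open squares the fit without wells 4 and 5. Bars are standard errors derived from the F statistic of the test. For Cxcl1, Zc3h12a and Vcam1 the red points of wells 4 and 5 lie right of 0 and the orange points of wells 1 to 3 left of it.

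By list, 17 chemokines were tested in both fits. With all wells 11 were higher in mutator and 3 lower (all genes 40.7% and 39.2%). Without wells 4 and 5 there were 9 and 5, and the call differed for 4 of the 17. Over all 13396 genes tested without wells 4 and 5, 5357 were higher in mutator and 5172 lower. Most genes of any kind were thus called, and nothing is read from the list counts. Of the 28 NF-kB genes, 11 were higher and 13 lower with all wells, against 7 and 14 without, and the call differed for 5. Of 42 AP-1 and immediate early genes it differed for 1. Over the 13291 genes tested in both fits it differed for 5.03%, and 0 genes passed in opposite directions.

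Wells also differed by transcript base composition. The 12460 genes with a known GC content were cut into 5 equal groups. The median log2 difference of wells 4 and 5 minus wells 1 to 3 was 0.09 in the group of highest GC content. In the group of lowest it was -0.06. Across these genes the log2 difference and GC content had a Spearman rank correlation of 0.56. The differences given above were not corrected for GC content. Well 4 deviated most, by 0.09 from the mean of the 5 wells in the group of highest GC content, and well 1 deviated by -0.07. Rpl36, a ribosomal protein gene with a GC content of 60.8%, had 121 and 103 CPM in wells 4 and 5, against 75.7, 82.4 and 104 CPM in wells 1, 2 and 3. With the GC and length trend removed, an alternative chosen after seeing the data, its difference was 0.22 in place of 0.37, and that of Junb was 0.37 in place of 0.54. Cxcl1 stood at 1.82, Ccl2 at 1.59 and Cxcl5 at 1.33 after removal. The chemokine list's median was then 0.29 in place of 0.30, with 10 of 18 higher without overlap in place of 11 (all genes 11.2% after removal, 16.2% before). The LIF and IL-6 list had 4 of 20 higher in place of 9, with a median of -0.02 in place of 0.03. The AP-1 and immediate early list had 11 of 42 in place of 15. The NF-kB list had 17 of 28 in place of 19, and the cytokine list 20 of 26 in place of 18. Lif stood at 1.13, Tnfaip3 at 0.83 and Nfkbia at 0.71.

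**Figure D5:**
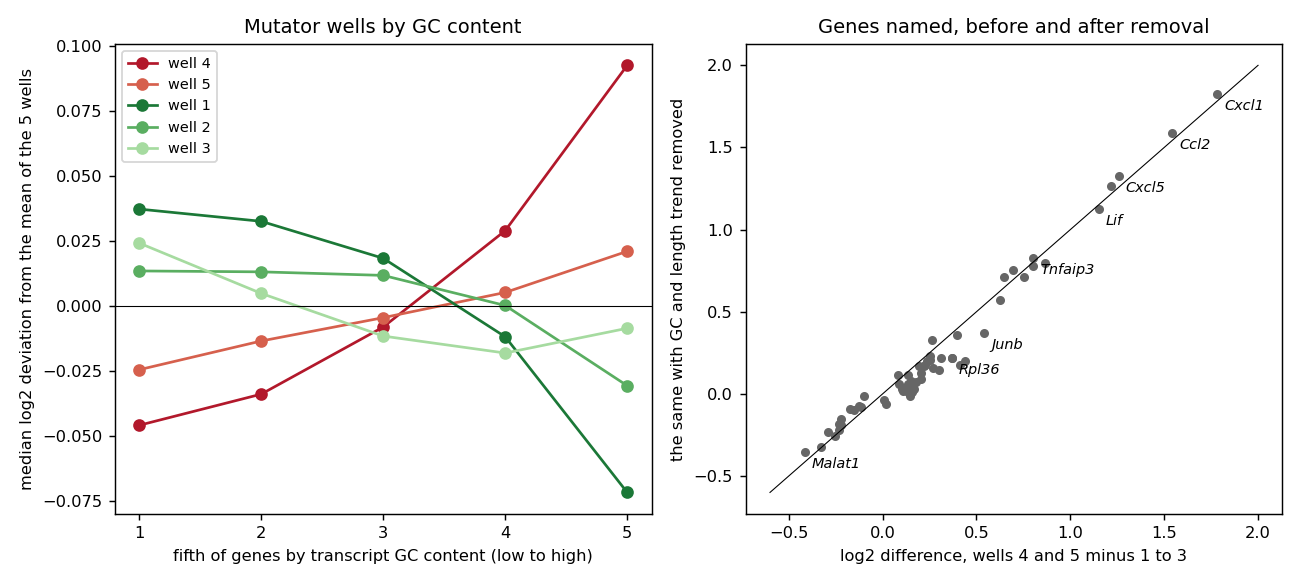
Left, median log2 deviation of each mutator well from the mean of the 5 wells in 5 equal groups of genes ordered by transcript GC content; right, log2 difference of the genes named before and after the GC and length trend was removed, with the line of equality. Wells 4 and 1 bend most with GC content, and Cxcl1, Ccl2, Cxcl5, Lif and Tnfaip3 lie near the line while Junb and Rpl36 lie below it.

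Markers of other cell types were looked at because leukocytes also make chemokines, and fewer cells of a type cannot be told apart from less RNA per cell in bulk libraries. Of 12 fibroblast markers 10 averaged at least 1 CPM in mutator wells, and Thy1 and Fap averaged 0.0917 and 0.166 CPM. Col1a1, the type I collagen chain, had 2657 to 3064 CPM in wells 4 and 5, against 2364 to 2785 CPM in wells 1 to 3. Ddr2 went the other way, at 394 to 413 CPM in wells 4 and 5, against 422 to 430 CPM in wells 1 to 3. All 12 summed to 9120 to 9854 CPM in wells 4 and 5 and 8702 to 9399 CPM in wells 1 to 3. Of 10 macrophage markers 2 averaged at least 1 CPM, Cd14 and Cd68, which fibroblasts can express, and 4 had no count in any mutator well. Their sum was 17.4 to 18.0 CPM in wells 4 and 5, 14.6 to 16.6 CPM in wells 1 to 3 and 6.49 to 7.80 CPM in WT wells. Adgre1, the macrophage receptor F4/80, was at 0 in every mutator well, and Ptprc, the pan-leukocyte receptor CD45, did not exceed 0.124 CPM. The 6 neutrophil and mast cell markers summed to at most 0.0231 CPM in any mutator well.

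Kappa-B matches were counted in the promoter windows of all genes with an entry, 250 bases before to 50 after the start, on both strands. Of the 76 higher genes 45 had an entry, with 51 windows, and 15 of these windows (29.4%) held a match. The share was 4.51% over all 32851 windows and 5.51% over windows of genes that passed the filter, and 1 of 25 windows (4.0%) of the lower genes held one. The AP-1 motif TGANTCA was in 9 of the 51 windows (17.6%), against 7.81% of all windows. Its share was 5.21% over windows of genes that passed the filter and 4.0% over windows of the lower genes. The printed promoters of Cxcl1, Cxcl2 and Cxcl3 each hold 2 overlapping kappa-B matches and that of Tnfaip3 holds 2 separate ones. Ccl2, Ccl7, Cxcl5, Nfkbiz, Slc7a2 and Vcam1 had no entry. A match describes letters and is no evidence of binding.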

How the data were processed

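RNA from 5 mutator and 4 WT wells was analysed. Per the submitters' processing notes, reads were aligned with STAR 2.4.2a to mm10 and counted with HTSeq, with no version or strand setting stated. The deposited table holds the authors' raw counts for 29915 rows; 5 of its value columns match no sample and were not used. Antisense partners cannot be told apart where strand was not used. With edgeR 4.0.16 (R 4.3.3), rows were filtered with filterByExpr, leaving 13345, and scaled by TMM. Well differences are means of log2 CPM with a prior count of 2; a gene counted as past the fold when the sets did not overlap and differed at least 1.5-fold. Mutator over WT was tested by quasi-likelihood at an adjusted p of 0.05. DESeq2 1.42.0 was an alternative. GC content and length came from GENCODE transcripts of GRCm38. Scripts were tested on simulated data.

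The wells, genes and 34 gene lists were chosen with earlier results of these data known. Named were the 5 marker genes (Ccl2, Cxcl1, Cxcl5, Lif, Tnfaip3); the 8 highest and 8 lowest differences at 10 CPM or more without overlap and with a non-provisional symbol; and the 2 largest per list at 5 CPM or more. Further members of the chemokine, NF-kB, cytokine and LIF lists are named beside these for their roles.

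Same-numbered mutator and WT wells did not deviate together, so the numbers were not treated as pairs.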

Additional observations from a re-analysis of the deposited data

Results flagged for a closer look

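A single well stood apart from the rest of its line for 5 genes, out of 136 sets of 4 or 5 wells checked. Chance alone gives about 1 set in 20, and 5 of 136 is no more than that. Part of the genes were named for differences among the mutator wells, so this rate need not hold for mutator sets. In mutator well 4, Xist, the nuclear RNA of the inactive X chromosome, had 874.9 CPM, against 987.5 to 1027 CPM in the other 4 mutator wells. Malat1, also retained in the nucleus, was lowest in the same well.

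The other 4 were WT wells. Vcam1 had 34.49 CPM in WT well 4, against 30.63 to 31.08 CPM in the other 3. Plaur, the urokinase receptor gene, had 91.73 CPM in WT well 1, against 88.24 to 88.77 CPM, and Gadd45b, a stress-response gene, had 56.29 CPM there, against 49.58 to 49.76 CPM. Adm, which encodes adrenomedullin, had 3.234 CPM in WT well 3, against 3.958 to 4.080 CPM.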

How the results depend on the processing

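The well counts depend on low expression. In place of 76 higher and 55 lower genes there were 282 and 275 with no filter, 12 and 1 at a mean of at least 10 CPM, 24 and 9 when 2-fold was required, and 11 and 0 with the GC and length trend removed at that mean. Leaving out 1 mutator well gave 96 to 146 higher and 66 to 186 lower genes; without well 4 there were 146 and 186, without well 5 139 and 110, and without well 3 115 and 89. Leaving out well 4 or 5 puts 1 well against the others, so fewer values can overlap. Column totals, DESeq2 size factors, upper quartile scaling and a prior count of 0.25 kept the counts within 1.5 times.

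The CV common to all genes was 3.87% between mutator wells and 2.85% between WT wells. Leaving out 1 well gave 3.16% (without mutator replicate 4) to 4.32% in mutator and 2.55% to 3.28% (without WT replicate 1) in WT, and leaving out mutator replicates 4 and 5 gave 2.64%. At 10 CPM or more in 4 libraries, pairs of wells were 0.0757 to 0.141 apart in mutator and 0.0912 to 0.119 apart in WT. Without mutator wells 4 and 5, the log2 fold changes of Zc3h12a and Vcam1 changed sign, to -0.38 and -0.25. The counts of genes called between mutator and WT moved by less than 1.5 times under every setting run. With the replicate number as a block, 5336 genes were higher in mutator and 5121 lower; same-numbered wells correlated at -0.08, 0.03, -0.03 and 0.00, so they share only a number.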

Other observations

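Well 3 was the highest of mutator wells 1 to 3 in 44 of the 76 genes that were at least 1.5-fold higher in wells 4 and 5, and in 1055 of the 2162 genes that were higher there by any amount. In the first principal component of the mutator wells, which held 37.4% of their variance, the wells scored 0.44 (well 4), 0.52 (well 5), -0.67 (well 1), -0.30 (well 2) and 0.01 (well 3). In the second, with 23.4%, wells 4 and 5 lay at opposite ends, at -0.47 and 0.72, with 0.26, -0.06 and -0.44 for wells 1, 2 and 3. These are descriptions of 5 libraries.

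Of 20 matrix protease and inhibitor genes that passed the filter, 6 were higher and 4 lower in both mutator wells 4 and 5 than in wells 1 to 3 (all genes 16.2% and 20.5%), with a median log2 difference of 0.02. The 2 that were at least 1.5-fold higher (all genes 0.57%) were scarce. Mmp3, the protease stromelysin, had 1.97 and 3.55 CPM in mutator wells 4 and 5, against 0.185, 1.59 and 1.39 CPM in wells 1, 2 and 3. Mmp13, a collagenase, had 1.12 and 1.73 CPM in wells 4 and 5, against 0.161, 0.499 and 0.464 CPM in wells 1, 2 and 3. Both were lowest in well 1 and highest in well 5.

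Of 34 cholesterol and fatty acid synthesis genes 2 were higher and 13 lower in both wells 4 and 5 than in wells 1 to 3. Of 40 DNA replication and mitosis genes 3 were higher and 16 lower. Over all genes the shares were 16.2% and 20.5%. With the GC and length trend removed, 1 cholesterol and fatty acid synthesis gene was higher and 13 were lower. For DNA replication and mitosis the counts were then 2 and 5 (all genes 11.2% and 14.9%). Of 66 cytosolic ribosomal protein genes 33 were higher and 2 lower, with a median log2 difference of 0.05, and with the GC and length trend removed 20 were higher and 5 lower (all genes 11.2% and 14.9%). Of 31 collagen and matrix genes that passed the filter, 8 were higher and 7 lower in both wells 4 and 5 (all genes 16.2% and 20.5%). With the GC and length trend removed 2 were higher and 7 lower (all genes 11.2% and 14.9%).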
